A study of Mus musculus with 12 samples.

Results

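Cytosolic ribosomal proteins are the protein parts of the ribosome outside mitochondria. They were followed here as 42 genes, 22 of the large and 20 of the small subunit, out of 12393 genes named on the arrays. A gene was taken if a probe set, the group of short oligonucleotides that reads out one transcript, carried exactly 1 gene symbol and that symbol began with Rpl or Rps and a digit, or was Rpsa, Rplp0, Rplp1 or Rplp2; pseudogenes, S6 kinases (Rps6k) and look-alike symbols were left out. The 42 genes had 91 such probe sets, and each gene was represented by the one with the highest mean over the 12 arrays. No measured difference between conditions entered the rule or the choice of probe set. The list itself was chosen with earlier results of these data known. All 42 genes entered the tests, since no filter on low values was used. Another 27 ribosomal protein genes, among them none of the 42, sat only on probe sets that list several symbols, and they are given as a separate check. Textbook members without a probe set of their own under this rule include Rplp1, Rpl3, Rpl5, Rpl10 and Rps27a.

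The cells were primary mouse embryonic fibroblasts at passage 4, grown in serum-containing DMEM. They came from wild-type mice or from mice lacking HtrA2, a mitochondrial intermembrane-space protease, and were exposed for 4 h to vehicle or to rotenone at 1 µM. Rotenone blocks complex I of the respiratory chain. Both genotypes received both treatments, which makes 4 groups, and each group has 3 Affymetrix arrays. The labels do not say which piece of the gene was removed, nor whether replicates are separate embryos, cultures or repeat preparations, so a p-value reflects the variation among these arrays, possibly a technical one.

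One genotype field calls the 3 wild-type rotenone arrays knockout, against every other label of theirs, which say wild type; the other labels were followed. Htra2 on these arrays was 9.08 ± 0.06 (log2, SD, n = 3), near the 9.06 ± 0.24 of wild type with vehicle and above the 7.67 ± 0.17 and 7.77 ± 0.09 of knockout cells with vehicle and with rotenone. Fibroblast markers were bright, with a mean over 11 markers between 11.86 and 12.16 on every array, and among markers of other cell types the leukocyte means lay between 6.48 and 7.16, the epithelial between 6.42 and 7.14, the endothelial between 6.23 and 6.64, the erythroid between 6.20 and 6.56, the neural between 7.11 and 7.72 and the muscle between 6.76 and 7.56. The brightest single marker of another cell type was Nes (nestin, of neural progenitors), at 10.41. Single fibroblast markers had means from 8.25 to 13.99. The dimmest of them thus lay below Nes and below the brightest leukocyte, endothelial and muscle markers. Values are log2 levels made with RMA, array medians lay between 7.53 and 7.58, and a level cannot be compared between genes because it depends on the probes. Each array reads RNA of a whole culture, so fewer cells with a transcript and less transcript per cell cannot be told apart.

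A ribosome needs 1 copy of nearly every ribosomal protein, so the genes are known for being expressed at high and matched levels in growing cells such as fibroblasts. In mammals their control is mainly translational. Their messages begin with a C followed by a run of pyrimidines, the 5′-terminal oligopyrimidine (TOP) tract, through which LARP1 and the kinase complex mTORC1 set how much of each message is on ribosomes. Arrays of total RNA measure the amount of message and not its translation. A change in TOP translation alone, at the same amount of message, would therefore not appear in these values.

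The start regions were read from RefSeq (assembly GRCm38.p6), which listed 37 of the 42 genes; Rpl7, Rpl8, Rps14, Rps20 and Rps29 were not among them. A C followed by at least 7 bases, each C or T, on the transcribed strand between 10 bases before and 50 bases after the annotated start, was present in 28 of the 37 genes (75.7%) and in 5106 of 27025 genes of the table (18.9%). The letters CCGGAA, the core bound by ETS factors, were present on either strand in the 300 bases from 250 before to 50 after the start in 25 genes (67.6%), against 16.7% of all genes. GGGCGG, the core of the GC box, was present in 21 genes (56.8%), against 38.2%, and TATAAA in 5 genes (13.5%), against 15.7%. Matches of different motifs may share bases, and a match describes letters only.

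The sequences below show pyrimidine runs near the annotated start of these messages, for the 4 genes that were lowest and the 4 that were highest on the one array that stood apart, and for Rpl12, the one gene past a threshold. Each is 30 bases, 5′ to 3′ on the transcribed strand, and capitals mark the longest pyrimidine run between 10 bases before and 50 after the annotated start, cut at the edges of that window. Coordinates are GRCm38.p6, with the strand after them and the position of the first printed base relative to the start; positive positions lie downstream, so such windows do not hold the start itself.
Rpl37, chr15:5116631-5116660, + strand, from +19: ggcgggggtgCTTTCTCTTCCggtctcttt
Rps28, chr17:33824547-33824576, - strand, from -14: gtaccgcgtgcggTCTCgcgagagcgaaag
Rps25, chr9:44407727-44407756, + strand, from +14: tggtctacacgaCTCTCTgagcttcgccat
Rps26, chr10:128626485-128626514, - strand, from -8: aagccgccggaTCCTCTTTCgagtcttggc
Rpl27a, chr7:109519186-109519215, + strand, from -9: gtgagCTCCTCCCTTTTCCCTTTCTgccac
Rpl7a, chr2:26910790-26910819, + strand, from -17: caattccCTCTTCTTTCTTTCTCCagcagc
Rpl6, chr5:121204521-121204550, + strand, from +21: cgctgccttagTTCTCTTTCCCgtcttgca
Rps6, chr4:86857349-86857378, - strand, from -11: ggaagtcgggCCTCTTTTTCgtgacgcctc
Rpl12, chr2:32961732-32961761, + strand, from +21: ggaggaggcaacggtgcaaCTTTCTTCggt
The runs of Rpl37, Rps28, Rps25 and Rps26 were 11, 4, 6 and 9 bases long, and those of Rpl27a, Rpl7a, Rpl6 and Rps6 were 20, 17, 11 and 10 within that window; the run of Rpl7a is cut at its edge and continues upstream in lower case. The genes were picked by their values, so this contrast of run lengths is a description of these sequences.

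The 42 genes were among the brightest on the arrays. Their mean log2 levels ran from 7.61 for Rpl27a to 14.44 for Rpl41, with a median of 13.37 against 7.55 over all probe sets, and 34 of them lay in the brightest 10%. Whether the brightest probe sets were near the ceiling of the scanner was not tested. The other 8 genes, Rpl12, Rpl14, Rpl27a, Rpl37, Rpl39, Rps25, Rps27 and Rps6, were represented by probe sets with a mean below 11. All 8 are also listed on probe sets with several symbols, which were not used for them, against 6 of the 34 brighter genes. Their low values are therefore those of the probe set that the choice left, and not necessarily those of the gene.

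Levels of these genes varied little between arrays of a group. The median standard deviation within groups was 0.10 over the 42 genes, against 0.15 over all genes, 0.18 over 74 mitochondrial ribosomal protein genes and 0.14 over 38 proteasome subunits. In the same order the median levels were 13.37, 7.92, 9.50 and 11.25, and the spread was not compared at matched level. Much of the spread of the 42 genes came from 1 array, the third wild-type rotenone array. Without it the median standard deviation was 0.06 for the ribosomal proteins and 0.14 for all genes. The mean correlation between pairs of ribosomal protein genes, over deviations from the group means, was 0.397 on 12 arrays and 0.158 on the other 11. For the mitochondrial ribosomal proteins it was 0.540 and 0.525, for the proteasome subunits 0.342 and 0.417, and for all genes 0.027 and 0.029. These correlations share the same arrays and are given as a description.

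**Figure D1:**
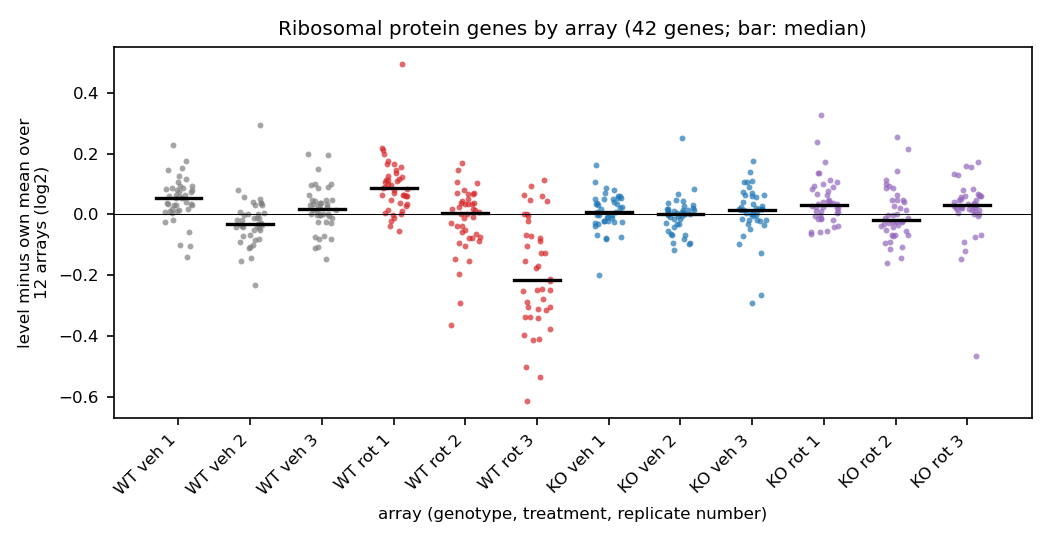
Level of each of the 42 ribosomal protein genes on each array, as the log2 difference from that gene's own mean over the 12 arrays (vertical axis), for the 4 groups of 3 arrays (horizontal axis); points are genes and bars are medians. On the third wild-type rotenone array the median is -0.22, while on the other 11 it lies between -0.03 and 0.09.

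On the third wild-type rotenone array, 34 of the 42 genes were below their own 12-array mean, with a median deviation of -0.22. On the other 11 arrays the median deviation lay between -0.03 and 0.09. This array held the lowest value of 27 of the 42 genes, whereas it held the lowest value of 16.4% of all probe sets. Counting all 91 probe sets of the genes, 80 were below their own mean there, and of the 27 genes on several-symbol probe sets 25 were, with a median deviation of -0.24.

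The genes did not all share in it. Rpl37, a small zinc-binding protein of the large subunit, was at 10.33, 10.01 and 10.05 in wild-type cells with vehicle, 10.30, 10.17 and 9.55 in wild-type cells with rotenone, 10.21, 10.23 and 10.23 in knockout cells with vehicle, and 10.40, 10.13 and 10.32 in knockout cells with rotenone. Its 1 low value is that of the third wild-type rotenone array, and the other 11 overlap across groups. Rps28, a very short protein of the small subunit near the mRNA exit, was at 13.90, 13.77 and 13.78 in wild-type cells with vehicle, 13.85, 13.83 and 13.25 in wild-type cells with rotenone, 13.84, 13.80 and 13.84 in knockout cells with vehicle, and 13.88, 13.83 and 13.85 in knockout cells with rotenone. Its other 11 arrays spanned 13.77 to 13.90, so the third wild-type rotenone array stands alone below them.

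Deviations on that array were -0.61 for Rpl37, -0.54 for Rps28, -0.50 for Rps25, -0.41 for Rps26 and Rpl35, -0.40 for Rpl22 and -0.38 for Rpl11. Rpl22 also binds viral and cellular RNAs, and Rpl11 binds Mdm2 together with Rpl5 and 5S rRNA. Rplp2, an acidic stalk protein, stood at -0.34, as did Rps29 and Rps27, and Rps14, a protein of the small-subunit platform, at -0.30. Rpl38, Rpl41, Rpl39 and Rps19 lay between -0.29 and -0.24; Rps19 is the gene most often mutated in Diamond-Blackfan anaemia.

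At the other end, Rplp0, the scaffold of the ribosomal stalk, was at 13.69, 13.60 and 13.57 in wild-type cells with vehicle, 13.77, 13.66 and 13.64 in wild-type cells with rotenone, 13.63, 13.64 and 13.63 in knockout cells with vehicle, and 13.72, 13.55 and 13.67 in knockout cells with rotenone. Rps2, which sits at the mRNA entry, was at 13.88, 13.87 and 13.89, then 13.92, 13.85 and 13.91, then 13.87, 13.85 and 13.73, and last 13.87, 13.80 and 13.90 in the same order of groups. Neither is low on the third wild-type rotenone array. The 4 groups of Rps2 overlap, and so do those of Rplp0, except that its wild-type rotenone arrays lie just above its knockout vehicle arrays, both at 13.64 where they meet. Deviations there were 0.04 for Rps2, 0.05 for Rps3, 0.06 for Rpl27a, 0.07 for Rpl7a, 0.09 for Rpl6 and 0.11 for Rps6, the small-subunit protein phosphorylated by S6 kinases. Rpsa and Rpl4 stood at 0.00.

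**Figure D2:**
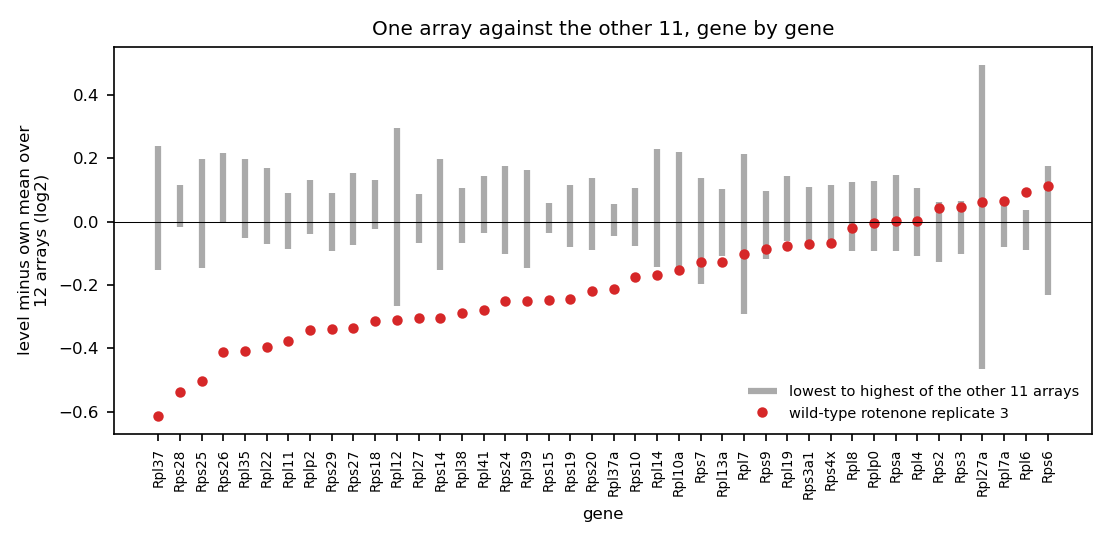
Level on the third wild-type rotenone array (red points) and the range of the other 11 arrays (grey bars) for each of the 42 genes, as the log2 difference from the gene's own 12-array mean (vertical axis), with genes ordered by the red point (horizontal axis). Rpl37 at -0.61 and Rps28 at -0.54 lie far below their bars, while Rplp0, Rps2, Rps3 and Rpl27a lie within them.

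The genes with a pyrimidine tract as defined above had a median deviation of -0.23 on that array (n = 28), and those without it -0.07 (n = 9). Among other gene groups, 59 of 74 mitochondrial ribosomal proteins were below their own mean there, with a median of -0.22, and 24 of 38 proteasome subunits, with a median of -0.08. The 19 translation factors whose messages also carry TOP tracts had a median of 0.08, with 8 below their mean, and 27 initiation factors had a median of 0.09. The median over all 22626 probe sets was -0.03, with 12669 below their mean. On this array the 3′ minus 5′ difference of the array's Gapdh control probe sets was 0.02, within the range of -0.06 to 0.18 over the 12 arrays. That of Actb was -0.13, outside the -0.05 to 0.12 of the other 11. The mean over 6 epithelial markers was 7.14 there, against 6.42 to 6.84 on the other 11 arrays, and the leukocyte mean of 7.07 lay within the 6.48 to 7.16 of the others. The part of these values in the low ribosomal protein levels was not tested.

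**Figure D3:**
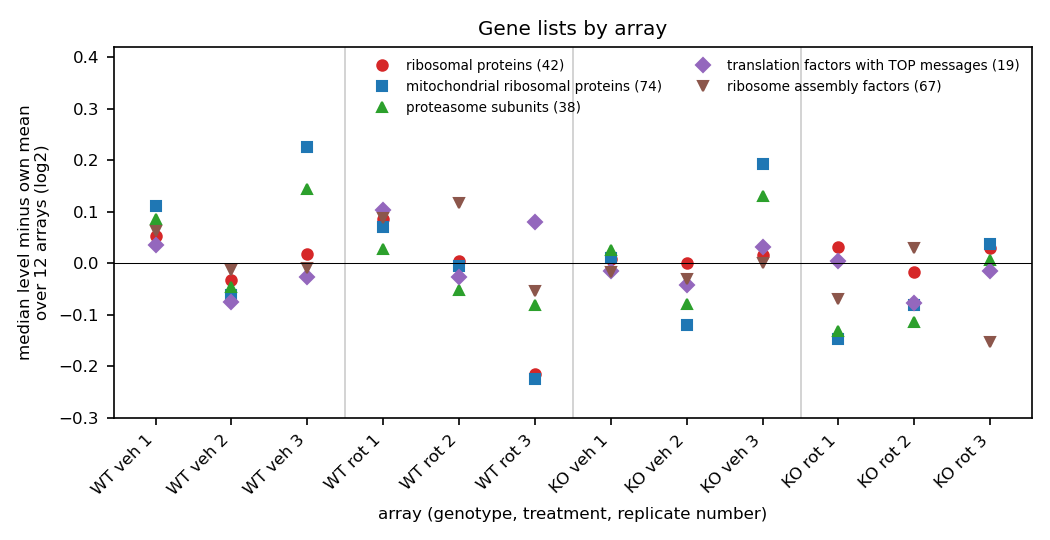
Median log2 difference from the gene's own 12-array mean (vertical axis) for 5 gene groups on each array (horizontal axis), with the number of genes in brackets. Ribosomal proteins and mitochondrial ribosomal proteins are both near -0.22 on the third wild-type rotenone array, while translation factors with TOP messages are at 0.08 there; on the arrays numbered 3 of the vehicle groups the mitochondrial ribosomal proteins are high and the cytosolic ones are near 0.

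Rotenone was compared with vehicle to ask whether inhibition of complex I for 4 h alters these messages. Averaged over both genotypes, none of the 42 genes passed the threshold (limma, adjusted p below 0.05), where 0.217% of all 22626 probe sets did; none had an unadjusted p below 0.05 either. A fit with a block for the replicate number again gave 0 of 42, against 2.46% of all probe sets, and no gene had an unadjusted p below 0.05. Differences ran from -0.13 for Rps25 to 0.10 for Rpl27a, with 15 above and 27 below 0 and a median of -0.018, against 0.022 over all probe sets. The smallest adjusted p over the 42 genes was 0.795, and 0.504 with the block.

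The width of the intervals was read as well; it bounds the change in the deposited values, and where a probe set was near the scanner's ceiling, which was not tested, it does not bound the change in RNA. The 95% interval of the rotenone difference lay within 1.25-fold either way for 40 of the 42 genes, the exceptions being Rpl27a and Rps25, and within 1.5-fold for all 42. Without the third wild-type rotenone array it lay within 1.25-fold for 41 genes, the median was 0.019, and 30 genes were above and 12 below 0. The side of 0 on which most of the genes lay thus depended on that array.

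**Figure D4:**
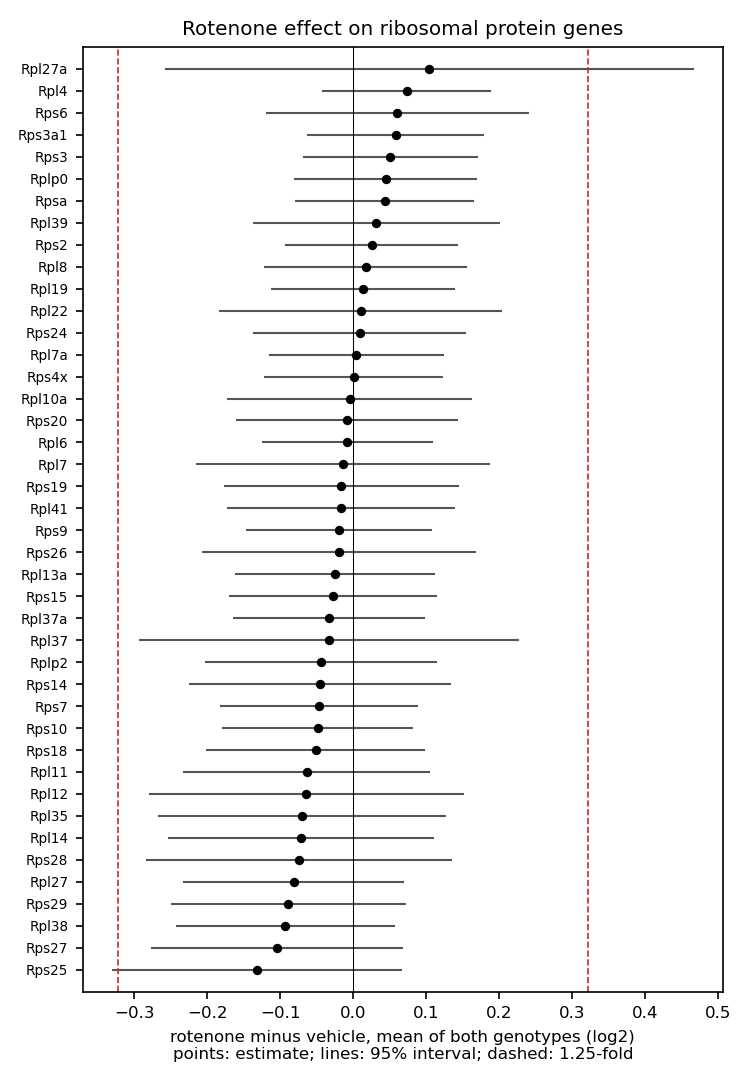
Rotenone minus vehicle, averaged over both genotypes, on the log2 scale (horizontal axis) for each of the 42 genes (vertical axis), with 95% intervals from limma as lines; dashed lines mark 1.25-fold. Every interval includes 0, and only those of Rpl27a and Rps25 cross a dashed line.

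By subunit, the 22 large-subunit genes had a median of -0.016, with 8 above and 14 below 0. The lowest was Rpl38, whose loss in mice alters Hox translation, at -0.09 (SE 0.07), and the highest Rpl27a at 0.10 (SE 0.17), followed by Rpl4, which lines the exit tunnel, at 0.07 (SE 0.05). The 20 small-subunit genes had a median of -0.020, with 7 above and 13 below 0. The lowest were Rps25, needed by several viral internal ribosome entry sites, at -0.13 (SE 0.09), Rps27 at -0.10 and Rps29 at -0.09. The highest were Rps6 and Rps3a1, each at 0.06. None of these passed the test. The 27 genes on several-symbol probe sets showed 0 passing by limma and 0 with an unadjusted p below 0.05, with a median of -0.027.

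Within wild type, 0 of the 42 genes passed in limma, against 0.0133% of all probe sets (with the block 0, against 0.628%), and 1, Rps25, had an unadjusted p below 0.05, against 4.36% of all probe sets. Rps25 was at 10.03, 9.94 and 10.10 in wild-type cells with vehicle, 10.01, 9.76 and 9.40 in wild-type cells with rotenone, 9.96, 9.91 and 9.89 in knockout cells with vehicle, and 9.89, 10.02 and 9.95 in knockout cells with rotenone. The first wild-type rotenone array lay among the vehicle arrays and the other two lay below them. The difference was -0.30 (SE 0.13, limma adjusted p = 1.00). Without the third wild-type rotenone array it was -0.14, with a 95% interval of -0.36 to 0.08. The next lowest were Rps28 at -0.17 and Rpl12 and Rpl35 at -0.16; without that array they were at 0.022, -0.021 and -0.0044. The highest were Rpl27a at 0.15, Rps6 at 0.13, Rpl4 at 0.11 and Rps3, a small-subunit protein that also acts in DNA repair, at 0.08.

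The median over the 42 genes was -0.056 in wild type, against 0.014 over all probe sets, with 13 above and 29 below 0. Taking arrays of the same number together, the median rotenone difference was 0.024 for number 1, 0.030 for number 2 and -0.23 for number 3, where 33 of 42 genes were lower. Without the third wild-type rotenone array the wild-type median was 0.016, with 24 above and 18 below 0. Intervals lay within 1.25-fold for 23 of the 42 genes, and for 36 without that array.

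Within knockout, 0 of the 42 genes passed in limma, against 0.00884% of all probe sets (with the block 0, against 0.301%), and 0 had an unadjusted p below 0.05. The median was 0.019, with 32 genes above and 10 below 0, and the median over all probe sets was 0.024. The same-number differences had medians of 0.013, 0.013 and 0.016. The highest was Rps24, at 0.13, followed by Rpl22 at 0.09 and Rps26 and Rps3a1 at 0.07. The lowest, Rps27, was at -0.06. Intervals lay within 1.25-fold for 35 of the 42 genes and within 1.5-fold for all 42.

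The difference of the rotenone effect between genotypes was tested directly. Of the 42 genes 0 passed in limma, against 0% of all probe sets, also with the block, and 0 had an unadjusted p below 0.05. The largest values were 0.34 for Rps25 (SE 0.18), 0.24 for Rps24 (SE 0.13), 0.21 for Rps18 and 0.20 for Rps28; without the third wild-type rotenone array they were 0.17, 0.17, 0.11 and 0.0037. The lowest were -0.14 for Rps6 and -0.10 for Rpl27a. The median was 0.063 with 33 genes above 0, against 0.002 over all probe sets. Without that array it was -0.012, with 20 above and 22 below 0. The interval was within 1.25-fold for 13 genes and within 1.5-fold for 37 with all arrays, and for 22 and 41 without that one, so this comparison bounds the differences less than the others.

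Knockout was compared with wild type to ask whether loss of HtrA2 alters the same messages. In vehicle, 0 of the 42 genes passed in limma, against 0.00442% of all probe sets (with the block 0, against 0.0177%), and 0 had an unadjusted p below 0.05. The median was -0.012, against 0.007 over all probe sets, with 20 above and 22 below 0. The lowest was Rpl12, a protein at the base of the stalk, at -0.21 (SE 0.14), and the highest were Rpl39, a tunnel protein, at 0.11 and Rpl37 at 0.09. The same-number differences had medians of -0.044, 0.026 and -0.0052.

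In rotenone, 0 of the 42 genes passed in limma, against 0.00442% of all probe sets (with the block 0, against 0.0398%), and 1, Rps24, had an unadjusted p below 0.05, against 5.57% of all probe sets. Rps24 was at 13.18, 13.02 and 13.08 in wild-type cells with vehicle, 13.12, 12.98 and 12.84 in wild-type cells with rotenone, 13.09, 13.06 and 13.07 in knockout cells with vehicle, and 13.26, 13.09 and 13.26 in knockout cells with rotenone. The lowest knockout rotenone array was below the highest wild-type one, so the groups overlapped. The difference was 0.22 (SE 0.10, limma adjusted p = 0.835). Without the third wild-type rotenone array its 95% interval was -0.06 to 0.36.

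The genotype median in rotenone was 0.072, against 0.017 over all probe sets, with 27 above and 15 below 0. Rpl37 at 0.28, Rps25 at 0.23 and Rps28 at 0.21 were the highest beside Rps24; without the third wild-type rotenone array these were 0.05, 0.07 and 0.014, and Rps24 was at 0.15. Rps6 at -0.16 and Rpsa, the laminin receptor precursor of the small subunit, at -0.10 were the lowest. Same-number medians were -0.053 and -0.018 for numbers 1 and 2 and 0.25 for number 3, where 36 of 42 genes were higher in the knockout. Without the third wild-type rotenone array the median was -0.017, with 14 above and 28 below 0. Intervals lay within 1.25-fold for 22 of the 42 genes, and for 34 without that array.

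Averaged over both treatments, 0 of the 42 genes passed in limma for genotype, against 0.00884% of all probe sets (with the block 0, against 0.552%), and 0 had an unadjusted p below 0.05. The median was 0.030, against 0.013 over all probe sets, and -0.013 without the third wild-type rotenone array. The highest was Rpl37 at 0.19 (SE 0.12), and 0.07 without that array, and the lowest Rpl12 at -0.11 (SE 0.10), and -0.18 without it. Intervals lay within 1.25-fold for 39 genes, the exceptions being Rpl12, Rpl27a and Rpl37, and within 1.5-fold for all 42.

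Arrays numbered 3 differed from those numbered 1 and 2 over the whole array, in a fit that took the 4 groups together. This difference was also read for the ribosomal proteins. Number 3 was compared because earlier results of these data had set it apart. The calls below therefore describe these arrays and are no independent support. With the groups accounted for, 1 of the 42 genes passed in limma, lower, against 21.8% of all probe sets (10.1% lower and 11.7% higher). That gene was Rpl12. It was at 8.49, 8.64 and 8.32 in wild-type cells with vehicle, 8.51, 8.41 and 8.03 in wild-type cells with rotenone, 8.34, 8.39 and 8.08 in knockout cells with vehicle, and 8.29, 8.43 and 8.20 in knockout cells with rotenone. The array numbered 3 was the lowest of its group in all 4 groups, as it also was for Rps27, which did not pass. The share of all probe sets with this pattern was not counted. Rpl12 is among the 8 genes read from a probe set with a mean below 11, so its values need not be those of the gene. The Rpl12 difference was -0.28 (SE 0.07, limma adjusted p = 0.00857), and -0.23 without the third wild-type rotenone array (adjusted p = 0.0426).

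The difference of Rpl27a was as large, -0.29, and did not pass (SE 0.14, adjusted p = 0.165). Next came, also without passing, -0.19 for Rpl37 and -0.16 for Rps27, and the highest were 0.10 for Rps6 and 0.07 for Rpl8 and Rpl7. The median was -0.036, against -0.044 over all probe sets. By group it was -0.0062 in wild-type cells with vehicle, -0.24 in wild-type cells with rotenone, 0.016 in knockout cells with vehicle and 0.022 in knockout cells with rotenone. Over all 91 probe sets of the genes, 5 passed, all lower: that of Rpl12 and secondary probe sets of Rpl22, Rps18, Rps9 and Rps20. On the arrays numbered 3 the mean level of 8 leukocyte markers was 7.07 to 7.16, against 6.48 to 6.70 on the other 8 arrays, that of 5 muscle markers 7.35 to 7.56, against 6.76 to 7.03, and that of 6 epithelial markers 6.76 to 7.14, against 6.42 to 6.66. Endothelial, erythroid and neural markers overlapped between the arrays numbered 3 and the others. Whether cells of these kinds were present was not tested, nor was any link of these marker values with the Rpl12 difference.

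Probe sets of the same gene did not always give the same sign. Of 21 genes with more than 1 probe set, all of a gene's probe sets had the same sign of the rotenone difference in 10, of the genotype difference in 13 and of the replicate 3 difference in 11. The dimmest probe set varied more within groups than the brightest in 15 of the 21, with median standard deviations of 0.15 and 0.10. Signs of single genes near 0 therefore depend on the probe set.

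The rule left out paralogs, of which 6 were measured. Rpl39l, a copy of Rpl39 best known from testis, was at 9.98, 9.61 and 9.99 in wild-type cells with vehicle, 9.85, 9.47 and 9.26 in wild-type cells with rotenone, 10.56, 10.55 and 10.00 in knockout cells with vehicle, and 10.39, 10.24 and 10.02 in knockout cells with rotenone. The lowest knockout array, at 10.00, lay just above the highest wild-type array, at 9.99. The genotype difference over both treatments was 0.60 (1.52-fold, SE 0.13), which did not pass in limma (adjusted p = 0.504) but passed with the replicate block (SE 0.10, adjusted p = 0.0118). Leaving out each array in turn, the blocked difference ran from 0.53 to 0.70 and passed in 6 of 12 cases, with adjusted p from 9.32e-04 to 0.0849; it did not pass without vehicle array 1 or 2 of either genotype, or without knockout rotenone array 1 or 2. Rpl39 itself differed by less, 0.098 over both treatments, and the difference between the copies was not tested. Rpl39l and Rpl39 are near-identical, so RNA of one may bind the other's probes.

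The other paralogs did not pass in any comparison in either fit. Rpl7l1 was at -0.25 for rotenone (SE 0.07, adjusted p = 0.316, and 0.0686 with the block), and Rps4l at -0.15. Rpl22l1, the copy of Rpl22, was at 10.76 on the third wild-type rotenone array and between 11.48 and 12.35 on the other 11, the same low array as for Rpl22. Rps27l, a p53 target, was at -0.05 for rotenone, and Rpl3l, a striated-muscle copy, was dim at about 5.3 in all groups.

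Genes that make or control ribosomes were read from lists. For rotenone over both genotypes, 7.90% of all probe sets had an unadjusted p below 0.05, 41.4% were below 0 and their median was 0.022. In that comparison 0 of 19 translation factors with TOP messages passed in limma (median 0.038, with 0 at an unadjusted p below 0.05), 0 of 27 initiation factors (median -0.0048, 5 at an unadjusted p below 0.05), 0 of 67 assembly factors (median -0.011, 4) and 0 of 16 genes of RNA polymerase I, which makes rRNA (median -0.0020, 1). Of these, Nop16, a nucleolar assembly factor, was at -0.33 (SE 0.11, adjusted p = 0.410) and Eif1ax, a start-codon factor, at -0.25. Of 74 mitochondrial ribosomal proteins 0 passed (12 at an unadjusted p below 0.05) and 63 were below 0, with a median of -0.12. With the block 1 passed, Mrpl18, at -0.34 (adjusted p = 0.0430, and in 3 of 12 cases with an array left out). The median deviation of these 74 genes on wild-type arrays 1, 2 and 3 was 0.111, -0.062 and 0.226 with vehicle. With rotenone it was 0.071, -0.0050 and -0.224. In knockout it was 0.0098, -0.120 and 0.192 with vehicle and -0.146, -0.081 and 0.038 with rotenone. The fall was largest for number 3 in wild type, and for number 2 the median was higher with rotenone in both genotypes. Of 38 proteasome subunits 0 passed (1 at an unadjusted p below 0.05) and 32 were below 0, with a median of -0.096.

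Among 15 genes of mTORC1 and the control of TOP messages, 1 passed for rotenone. Ddit4 (REDD1), a stress-induced inhibitor of mTORC1, was at 10.54, 10.43 and 10.26 in wild-type cells with vehicle, 10.92, 11.09 and 10.66 in wild-type cells with rotenone, 10.33, 10.28 and 10.23 in knockout cells with vehicle, and 10.97, 10.92 and 10.66 in knockout cells with rotenone. All 6 rotenone arrays lay above all 6 vehicle arrays. Ddit4 rose by 0.52 (1.44-fold, SE 0.09, limma adjusted p = 0.0415), and with the block the adjusted p was 5.68e-04. Leaving out each array in turn, it passed without the block only in the 2 cases that left out the third wild-type or the third knockout rotenone array (adjusted p from 0.0232 to 0.136 over the 12 cases), and with the block in 12 of 12.

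Pdcd4, an inhibitor of the helicase Eif4a that S6 kinase marks for degradation, was at 9.33, 8.97 and 9.00 in wild-type cells with vehicle, 8.77, 8.54 and 8.28 in wild-type cells with rotenone, 8.73, 8.98 and 8.65 in knockout cells with vehicle, and 8.48, 8.66 and 8.45 in knockout cells with rotenone. Wild-type groups did not overlap, and knockout groups overlapped only narrowly, with a vehicle array at 8.65 and a rotenone array at 8.66. The difference of the rotenone effect between genotypes was 0.32 (SE 0.20) and did not pass in either fit. Over both genotypes the rotenone difference was -0.41 (SE 0.10), which did not pass without the block (adjusted p = 0.201) and passed with it (adjusted p = 0.0150). With the block it also passed in 9 of 12 cases with an array left out, but not without wild-type vehicle array 1, knockout vehicle array 2 or knockout rotenone array 1 (adjusted p from 0.0652 to 0.0759).

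For genotype over both treatments, 5.99% of all probe sets had an unadjusted p below 0.05, 45.4% were below 0 and their median was 0.013. There 0 genes of each of these lists passed in limma, without or with the block, other than Rpl39l with it. The counts at an unadjusted p below 0.05, without the block, were 1 of 19 translation factors with TOP messages, 3 of 27 initiation factors, 6 of 67 assembly factors, 2 of 16 polymerase I genes, 0 of 15 mTORC1 genes, 1 of 74 mitochondrial ribosomal proteins and 1 of 38 proteasome subunits. Of the 67 assembly factors 58 were below 0, with a median of -0.075, and Rpf1, an assembly factor of the large subunit, stood lowest at -0.26 (SE 0.08, adjusted p = 0.809).

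In the comparison of arrays numbered 3 with the others, where 21.8% of all probe sets passed, 21 of 67 assembly factors passed, 14 of them lower, among them Riok2, a kinase of late small-subunit maturation, at -0.51 and Gar1, of H/ACA particles, at -0.40. All 5 of 16 polymerase I genes that passed were lower, Taf1c at -0.32 and Ttf1 at -0.30 among them. Of 15 mTORC1 genes 5 passed, including Myc, a driver of ribosome production, at -0.88 (adjusted p = 1.10e-04). All 10 of 74 mitochondrial ribosomal proteins that passed were higher, with Mrpl18 at 0.62, as were all 6 of 38 proteasome subunits. Of 27 initiation factors 7 passed, 6 of them higher, and of 19 translation factors with TOP messages 2 passed, 1 in each direction, with Eif4a2 at -0.37.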

How the data were processed

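Fibroblast RNA was hybridised to 12 Affymetrix arrays. The authors deposited log2 levels computed by RMA, per the submitters' processing notes, with no version stated there. This method brings array distributions together, so a shift common to most transcripts is lost, and small differences are compressed. No scanner intensities were used here, so signal over background is not known; precision is limited by how many arrays there are.

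Of 22690 probe sets, 64 controls were left out and 22626 tested; 20380 carry 1 gene symbol, 691 several and 1555 none. Differences were tested with limma 3.58.1 under R 4.3.3 (lmFit, then eBayes, two-sided tests), fitting the 4 group means at once, with Benjamini-Hochberg adjustment over all probe sets and a threshold of 0.05. The replicate 3 difference added an indicator for that number. On simulated data for the mean rotenone contrast over 22626 probe sets, 95% of 100 changes of 1 and 55% of 100 changes of 0.5 on the log2 scale were recovered, with 12 false calls. The changed probe sets were random ones, and the simulated noise was independent between probe sets and arrays. It lacked the differences between replicate numbers seen in the data, so recovery in the data can differ. The replicate numbers were taken to pair the arrays, a pairing that the labels do not state. Deviations of all 18 same-number pairs correlated, with r from 0.289 to 0.829. Those of 36 different-number pairs had r from -0.688 to 0.476, so the ranges overlap. Deviations from group means also push different-number pairs towards negative r, so these ranges do not establish the pairing. Alternatives were the block, leaving out arrays, other normalizations, other probe sets per gene, a filter on dim probe sets and other moderation.

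The members, the lists and the comparison of replicate 3 were chosen with earlier results of these data known. Of 226 list entries 33 were not found. Named genes are members past the threshold in any comparison, the 4 largest rises and 4 largest falls of each, textbook members, paralogs, and, of each other list, up to 4 that passed or the 2 of largest change; examples were taken from these. A gene shown for its value on 1 array, and secondary probe sets, were chosen after the values were seen.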

Additional observations from a re-analysis of the deposited data

How the results depend on the processing

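The number of members past the threshold was 0 in each of the 7 treatment and genotype comparisons under every alternative run. With the replicate number as a block it was 0 as well, and the median rotenone difference was -0.018, so the block changed no member's call. For replicate 3 against 1 and 2 the count was 1; it was 2 (lower) when each gene was the mean of all its probe sets, 2 of 37 without probe sets whose names end in _x_at or _s_at, and between 1 and 2 when each array was left out, with Rpl27a at -0.40 joining Rpl12 without the second wild-type rotenone array. It was 0 within wild type, within vehicle or within rotenone alone, where fewer arrays were fitted. The replicate 3 median of -0.036 became -0.12 within wild type only. The genotype median in rotenone, 0.072 with all arrays, ran from -0.017 (without the third wild-type rotenone array) to 0.13 when each array was left out, and was -0.023 without all arrays numbered 3. Adding genes of several-symbol probe sets, and centring arrays on other bright probe sets, were chosen after seeing the data and moved no count. The number of arrays limits detection. In the mean rotenone contrast the 95% intervals of 40 of 42 members lay within 1.25-fold. These intervals are of single genes and unadjusted, so they do not give the smallest change that the adjusted test would detect. In the simulation, 55% of changes of 0.5 on the log2 scale were recovered.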
